A study of Bos taurus with 29 samples.

Results

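AGRP, NPY and POMC are 3 of the 24596 genes in the RNA-Seq table of the bovine hypothalamus, and they were followed here in tissue from which the arcuate nucleus (ARC), the region where their neurons lie, had already been dissected. The genes were chosen by name, and their identifiers (ENSBTAG00000014556, ENSBTAG00000004503 and ENSBTAG00000007897) were those that the study's supplementary list pairs with the symbols. The samples came from 29 Angus X Holstein-Friesian heifer calves, which were slaughtered at 21 weeks of age. In the HI group, 14 calves had received 1.5 kg of milk replacer in 10 litres per day with concentrate to appetite, and after weaning concentrate and hay to appetite, for a target gain of 1.2 kg per day. In the MOD group, 15 calves had received 0.5 kg of milk replacer in 4 litres with 1 kg of concentrate per day, and after weaning 1 kg of concentrate with hay to appetite, for a target gain of 0.5 kg per day. The labels give week 2 as the start of the feeding, a week earlier than the study's methods, with 8 weeks as the length of the calf phase and 11 weeks as that of the post-weaning phase. After weaning the calves were penned by diet, so that diet and pen cannot be told apart, and the calves sequenced had been picked for a daily gain close to the mean of their group.

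The ARC, at the base of the hypothalamus, holds a pair of neuron sets with opposite effects on feeding. One set makes agouti-related peptide (AGRP) and neuropeptide Y (NPY), which promote feeding, and AGRP also blocks the melanocortin receptors. The other set makes pro-opiomelanocortin (POMC), the precursor of the melanocortin peptides that restrain feeding, and many of its cells also make CARTPT, the cocaine- and amphetamine-regulated transcript. Both sets respond to leptin and reach the neurons that release gonadotrophin-releasing hormone, which is why they are studied in early puberty. In the brain, AGRP is made almost entirely in the ARC, whereas NPY is made by neurons of many regions, CARTPT is made in several hypothalamic nuclei, and POMC is also made in quantity by the anterior and intermediate lobes of the pituitary, which hangs directly below the ARC.

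Values are the deposited CPM (read counts scaled to a fixed library size, after adjustment by the TMM method, a trimmed mean of log ratios between libraries), and the reads behind them were recovered from the table. Recovered totals were 11956507 to 17206435 reads per calf in HI and 11820640 to 15925226 in MOD, so that 3 reads, taken as the limit of detection in a single calf, correspond to 0.178 to 0.279 CPM. These totals are the reads assigned to genes in the table, not all reads sequenced. Intervals on single calves cover counting error only. Values were not divided by gene length, so that the level of one gene is not compared with that of another. In bulk tissue, fewer cells of a type and less RNA per cell cannot be told apart. Over the whole transcriptome 4 libraries were known from earlier work on these data to stand apart (MOD calves 1689, 1395 and 2551 and HI calf 2120), and results are given with and without them where they differ.

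AGRP was almost absent from the counts of the remaining hypothalamus. Only 7 reads fell on the gene among 399256938 reads in all 29 calves, and 23 calves had none. MOD calf 911 had 2 reads, and HI calves 1050 and 2570 and MOD calves 981, 1689 and 2532 had 1 read each. Pooled over all calves the level was 0.0175 CPM (95% exact Poisson interval 0.00705 to 0.0361), and no single calf reached its own limit of 3 reads. The libraries were stranded, and the strand setting of the counting is not given in the sources used here. The study called AGRP between diets in ARC libraries prepared, mapped and counted by the same methods. Whether reads of the gene were left out by the strand setting was not tested. Genes were retained for testing when 14 or more calves exceeded 1 CPM. NPY and POMC were among the 13785 genes retained, and AGRP was not.

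NPY had reads in every calf, but its level was low and its values spread widely between animals. It was counted with 2 to 217 reads per calf. MOD calf 1690, with 2 reads, lay below the limit of 3 reads, and HI calf 1089 and MOD calf 991 lay at it. In HI the lowest value was 0.222 CPM in calf 1089, the median 1.39 CPM and the highest 5.45 CPM in calf 3148. In MOD the lowest value was 0.153 CPM in calf 1690 (95% exact Poisson interval 0.0185 to 0.553), the median 1.45 CPM and the highest 15.6 CPM in calf 2551 (interval 13.6 to 17.8). NPY exceeded 1 CPM in 16 of the 29 calves and 10 CPM in 3, which were MOD calves 2551, 911 (12.6 CPM) and 2532 (11.9 CPM). Calves 911 and 2532 were also the highest in NKX2-1, a transcription factor of the ventral hypothalamus, with 11.6 and 15.0 CPM against a median of 0.687 CPM in HI and of 0.737 CPM in MOD, and the highest MOD calves in GAD2, which makes the transmitter of GABA neurons (45.4 and 72.3 CPM). Calf 2551 had 0.646 CPM of NKX2-1 and 9.62 CPM of GAD2. Across calves, r of NPY with NKX2-1 was 0.481 (0.613 without the 4 calves that stand apart) and with GAD2 0.296 (0.502 without them). NKX2-1 did not pass the filter. With CHGA, a granule protein of neurons and endocrine cells, r was 0.0312 and rho -0.269. Without the 4 calves, r with CHGA was -0.421. The part of these markers in the NPY values was not tested. The standard deviation of NPY over all calves on the log2(CPM + 1) scale was 1.11, which was larger than that of 96.5% of the genes past the filter (median gene 0.43).

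POMC was steadier than NPY between calves and was found in every calf with 139 to 1132 reads. In HI it ranged from 12.3 CPM in calf 2535 through a median of 19.5 CPM to 94.7 CPM in calf 2120. In MOD it ranged from 11.2 CPM in calf 2346 through a median of 16.9 CPM to 89.9 CPM in calf 1689. All calves lay over 10 CPM and only 4 lay over 30 CPM, with MOD calves 2551 (61.7 CPM) and 2537 (35.9 CPM) as the others. The fifth highest value was 25.9 CPM in HI calf 1388. Without the 4 calves that stand apart, POMC was 18.8 ± 5.23 CPM (SD, n = 25), a coefficient of variation of 0.279. Over the same 25 calves the coefficient of variation of NPY was 1.23. The standard deviation of POMC on the log2(CPM + 1) scale was larger than that of 85.5% of genes in the 29 calves and of 64.5% in the 25 calves, whereas for NPY the second share was 98.8%.

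**Figure D1:**
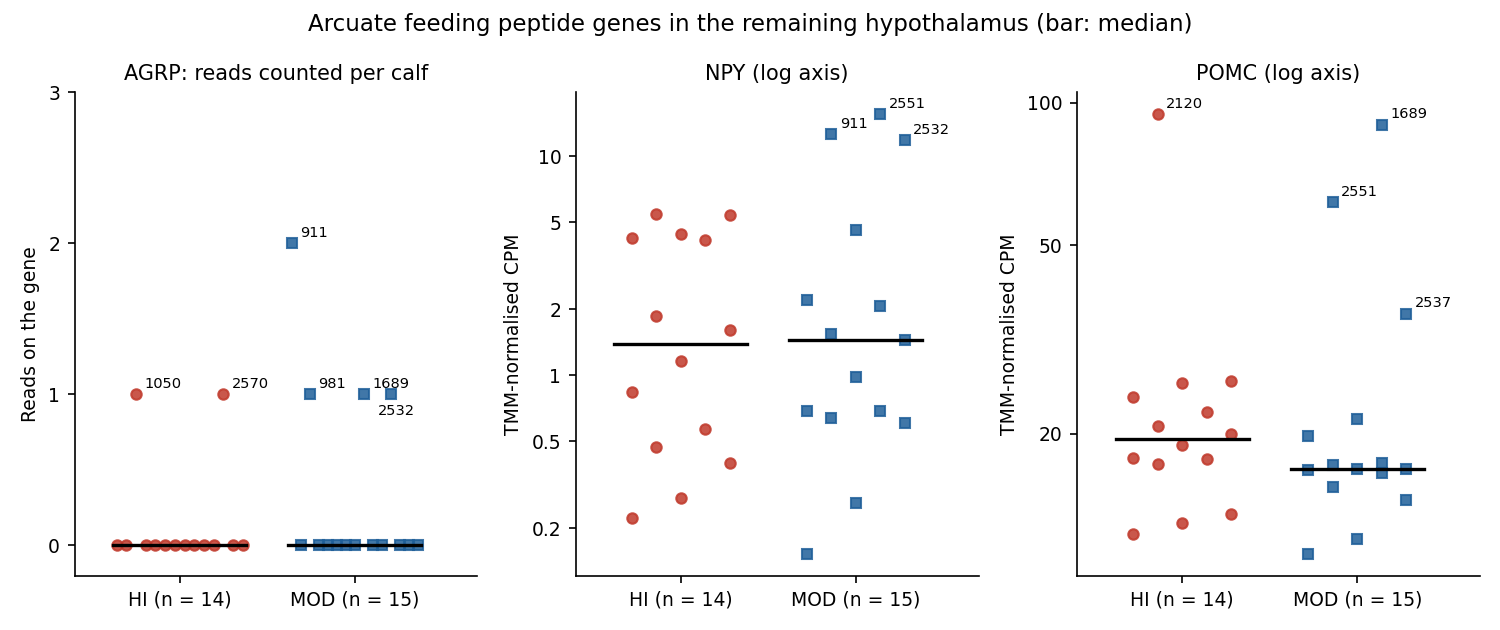
Reads on AGRP (left, linear axis) and TMM-normalised CPM of NPY (middle) and POMC (right), both on log axes, in 14 HI (circles) and 15 MOD calves (squares). Each point is a calf, the bars are medians and the numbers name calves. AGRP is at 0 in 23 calves, NPY runs from 0.153 to 15.6 CPM with the 3 highest calves in MOD, and POMC lies between 11.2 and 25.9 CPM in all but 4 calves.

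Whether the plane of nutrition altered what remained of these transcripts was tested with limma on log2(CPM + 1). A gene was called when its adjusted p-value lay below 0.10 and its fold change exceeded 1.5. By this rule neither NPY nor POMC was called, beside 0% of the 13785 genes tested. AGRP was not among the genes tested. Its highest value, 0.153 CPM in MOD calf 911, is too low for a 1.5-fold difference on this scale, so that it could not have been called. By limma, 179 genes (1.3%) had an unadjusted p-value under 0.05, and neither NPY nor POMC was among them. This number was 828 without the 4 calves that stand apart, 728 without HI calf 2120 alone, 385 without MOD calf 1395 alone and 1742 with limma-voom quality weights, and NPY and POMC were not among these genes in any of the 4 fits. With recovered reads, the exact test of edgeR and its quasi-likelihood test also called 0 genes, with 209 (1.52%) and 224 (1.62%) genes at an unadjusted p-value under 0.05, whereas DESeq2 called 2 genes (0.0145%) and had 305 (2.21%) at an unadjusted p-value under 0.05. NPY and POMC were not among these 2 genes, and AGRP was not among the genes tested. The study, which also used the exact test of edgeR, did call genes between diets in this tissue. The cause of that difference was not tested.

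Mean NPY was 3.73 ± 5.15 CPM in MOD (SD, n = 15), as against 2.21 ± 2.02 CPM in HI (SD, n = 14). The groups overlapped almost entirely, since the MOD median divided the 14 HI calves into 7 above and 7 below. Calves 2551, 911 and 2532 lay above every HI calf, and MOD calf 1690 lay below every one. The log2 difference of HI from MOD was -0.21 (standard error 0.40, 95% interval -1.02 to 0.60, p = 0.6, adjusted p = 0.999 by limma), smaller in size than its standard error. A permutation of the diets over the calves gave p = 0.615. Without MOD calf 2551 the log2 difference shrank to -0.04, and the ratio of the means of MOD over HI, 1.68, stood beside a ratio of the medians of 1.04.

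Mean POMC was 25.6 ± 21.8 CPM in MOD (SD, n = 15), as against 24.6 ± 20.6 CPM in HI (SD, n = 14), a log2 difference of 0.00 (value 0.0043, standard error 0.27, 95% interval -0.55 to 0.56, p = 0.987, adjusted p = 0.999 by limma). The medians were ordered the other way from the means, and the MOD median was exceeded by 11 of the 14 HI calves. Each diet held calves of very high POMC, 1 in HI and 3 in MOD over 30 CPM. Leaving out HI calf 2120 gave a log2 difference of -0.16 and leaving out MOD calf 1689 gave 0.15. Without the 4 calves that stand apart, mean POMC in the 13 HI calves was 19.2 CPM (SD 4.53) and in the 12 MOD calves 18.3 CPM (SD 6.08). The log2 difference was then 0.08 (limma, standard error 0.14, p = 0.592, adjusted p = 0.975), smaller than its standard error.

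For AGRP, 2 of 14 HI and 4 of 15 MOD calves had at least 1 read (Fisher's exact test, two-sided, p = 0.651, chosen after the data were seen). The reads themselves numbered 2 in HI and 5 in MOD. The ratio of MOD over HI was 2.37 with a 95% exact binomial interval of 0.387 to 24.9, which covers counting error only. No difference between diets could be detected at this depth. When limma was fitted to all 19525 genes that had any read, AGRP differed on the log2(CPM + 1) scale by -0.02 (standard error 0.02, p = 0.318, adjusted p = 0.999), a value set by the pseudocount of 1.

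Of the other hypothalamic neuropeptide genes with an identifier, CARTPT is the one shared with POMC neurons. It ranged from 0.411 CPM in calf 2570 through a median of 2.70 CPM to 9.95 CPM in calf 986 in HI, and from 0.134 CPM in calf 1395 through a median of 4.69 CPM to 17.7 CPM in calf 2551 in MOD. Of the HI calves, 11 of 14 lay below the MOD median, and limma gave a log2 difference of HI from MOD of -0.46 (standard error 0.38, p = 0.233, adjusted p = 0.999). The list of 10 such genes (CARTPT, AVP, OXT, HCRT, PMCH, GAL, TAC1, PENK, PDYN and CALCB) is, apart from CARTPT, part of the list the study chose on these samples, so that its direction is not independent evidence. The log2 difference was below 0 for 8 of the 10 and above 0 for PMCH and GAL, with a median of -0.67. Over all genes tested the median was 0.02, with 57.1% above 0 and 42.9% below. Of the 10 genes 9 passed the filter (CALCB did not), and none of the 10 was called or had an unadjusted p-value under 0.05 (smallest p = 0.0849 by limma).

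**Figure D2:**
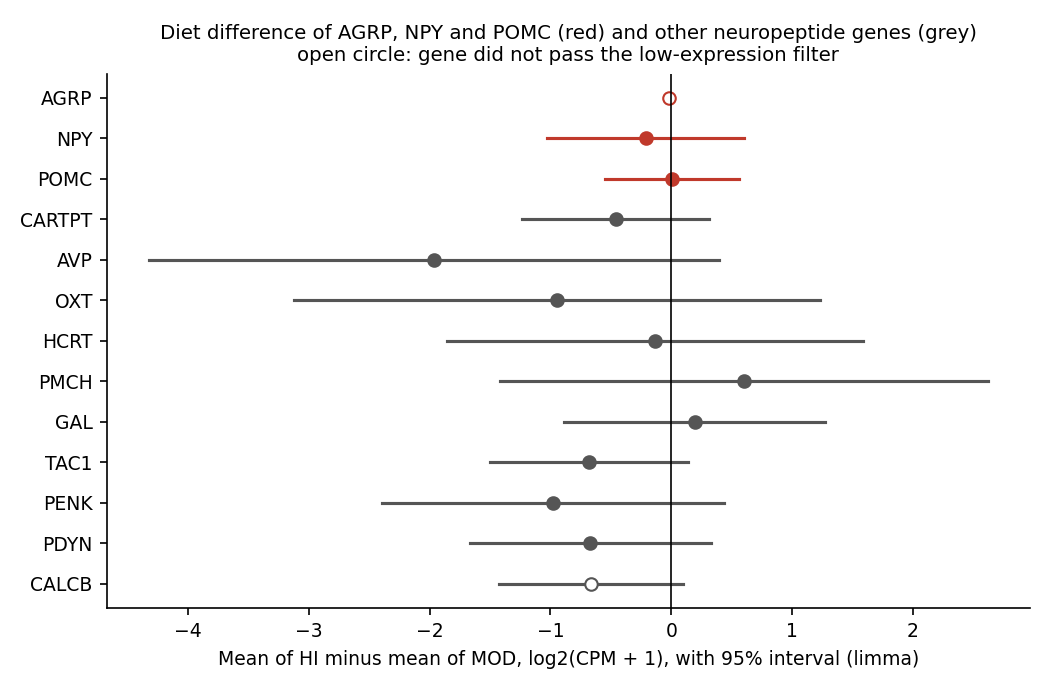
Mean of HI minus mean of MOD on the log2(CPM + 1) scale with the 95% interval from limma, for AGRP, NPY and POMC (red) and 10 other neuropeptide genes (grey), with open circles for genes below the low-expression filter. Every interval includes 0, and those of NPY and POMC run from -1.02 to 0.60 and from -0.55 to 0.56.

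Sequencing files carried 1 of 5 file-name prefixes, each with calves of both diets, and the order of the diets changed between prefixes for both genes. Under prefixes 6 to 10, the log2 difference of HI from MOD in NPY was -0.01, -0.17, 1.81, -1.03 and -1.52, and that in POMC was 0.11, 0.16, -0.55, 0.56 and -0.43. Each of these rests on 2 to 4 calves per diet. With the prefix as a factor, the log2 difference was -0.18 for NPY (p = 0.677) and -0.0078 for POMC (p = 0.979), both with an adjusted p of 1.00 by limma.

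**Figure D3:**
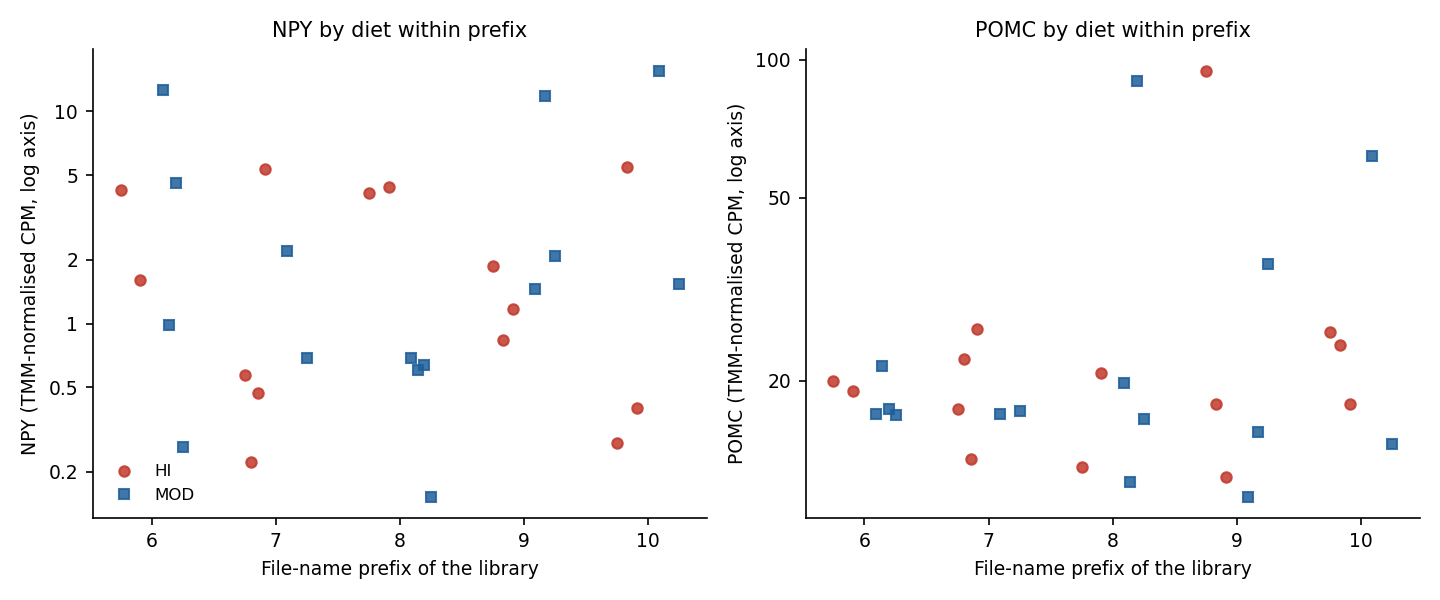
TMM-normalised CPM of NPY (left) and POMC (right) on log axes by the file-name prefix of the library, with HI calves as circles and MOD calves as squares. Both HI calves lie above all 4 MOD calves for NPY under prefix 8, whereas under prefixes 9 and 10 the highest NPY calf is in MOD.

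Whether the genes varied together was then examined over the 29 calves. NPY and POMC did not vary together beyond the spread of permuted pairings. Pearson r on log2(CPM + 1) was 0.145 (permutation p = 0.46, adjusted p = 0.633 over 3 pairs) and Spearman rho was 0.168 (permutation p = 0.382, adjusted p = 0.718). When the 2 calves most distant from the median NPY value were left out, r was -0.0015, and without the 4 calves that stand apart it was 0.04. It was 0.121 within HI and 0.161 within MOD (permutation p = 0.757 and 0.604). Prefixes 6, 7, 8 and 9 hold 6 calves each, and the respective r was -0.273, 0.536, -0.207 and -0.0535 (exact permutation p = 0.597, 0.283, 0.808 and 0.939).

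The calves with the highest values of each gene were largely different animals. Of the 3 calves over 10 CPM in NPY, 911 and 2532 had 16.9 and 15.5 CPM of POMC, which is close to the median of 17.7 CPM over all calves. Of the 4 calves over 30 CPM in POMC, 2120, 1689 and 2537 had 1.86, 0.635 and 2.08 CPM of NPY. MOD calf 2551 alone was high in both. In all, 8 calves were above the median of both genes and 9 above neither, with 6 above the median of NPY alone and 6 above that of POMC alone.

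All correlations of AGRP rest on its 7 reads. With NPY, r was 0.289 (permutation p = 0.126, adjusted p = 0.377) and rho 0.104 (p = 0.593, adjusted p = 0.718), and r was 0.116 without the 2 calves most distant from the AGRP median and 0.0369 without MOD calf 911. Without the 4 calves that stand apart it was 0.434 (permutation p = 0.0266, adjusted p = 0.0799). The 15 MOD calves alone gave 0.54 (permutation p = 0.0297, adjusted p = 0.0891) and the 14 HI calves alone -0.417 (p = 0.189, adjusted p = 0.568). The 4 MOD calves with AGRP reads included 911 and 2532, which followed calf 2551 in NPY, whereas calf 2551 itself had no AGRP read. With POMC, r was 0.0947 (permutation p = 0.633, adjusted p = 0.633) and rho 0.0703 (p = 0.718, adjusted p = 0.718), and r turned to -0.0646 without the 2 most distant calves.

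Ratios of one gene to another within a calf, taken as differences of log2(CPM + 1), were also compared between diets. The log2 ratio of NPY to POMC, chosen after the data were seen, was -3.05 ± 1.08 (SD, n = 14) in HI and -2.83 ± 1.40 (SD, n = 15) in MOD. The difference of -0.22 was not beyond the spread given by permuted diets (permutation p = 0.647, adjusted p = 0.936 over 3 ratios), and 7 of 14 HI calves lay below the MOD median. It was -0.43 without MOD calf 1689 and -0.04 without MOD calf 2532. The log2 ratios of POMC to AGRP and of NPY to AGRP differed by 0.02 and -0.19 (permutation p = 0.936 and 0.645, adjusted p = 0.936 for both), and with AGRP near 0 these were nearly the values of POMC and NPY alone.

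NPY was higher in calves with more CARTPT. Over the 29 calves r was 0.548 (permutation p = 0.00213, adjusted p = 0.00426 over 4 pairs added after the data were seen) and rho 0.535 (p = 0.00299, adjusted p = 0.012). The relation rested in part on the extremes, since r was 0.379 on leaving out the 2 calves most distant from the NPY median (permutation p = 0.0518, adjusted p = 0.104) and 0.461 without the 4 calves that stand apart (p = 0.0201, adjusted p = 0.0805). It was 0.668 within MOD (permutation p = 0.00658, adjusted p = 0.0193) and 0.248 within HI (p = 0.393, adjusted p = 0.524), and the difference between the diets was not tested. Within prefixes 6 to 9 r was 0.577, 0.814, 0.0634 and 0.722 (exact permutation p = 0.211, 0.05, 0.869 and 0.129), so that it was not seen within each prefix. CARTPT was 17.7, 11.2 and 8.16 CPM in the 3 calves highest in NPY, while MOD calf 1392 had 17.6 CPM of CARTPT with 0.685 CPM of NPY. POMC and CARTPT, by contrast, had an r of 0.128 (permutation p = 0.513, adjusted p = 0.513) and a rho of -0.0399 (p = 0.837, adjusted p = 0.837), and r was -0.206 without the 4 calves that stand apart (p = 0.325).

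**Figure D4:**
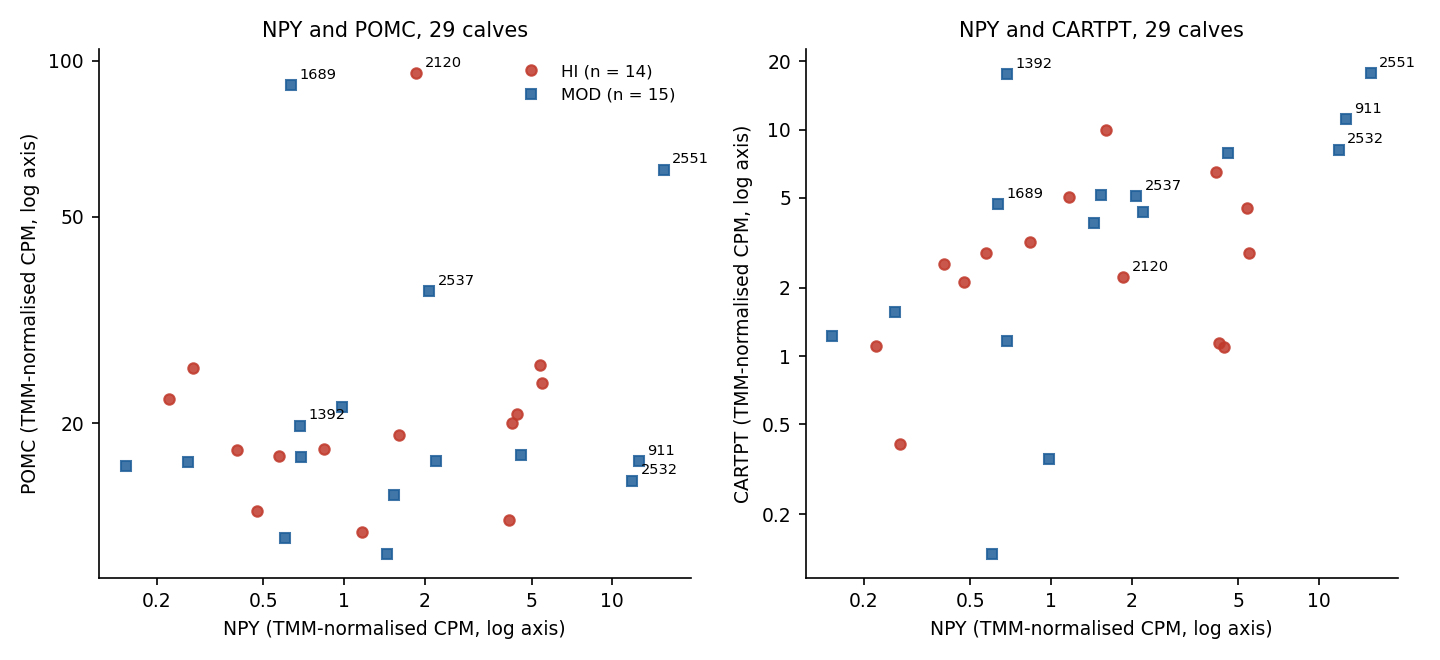
NPY against POMC (left) and against CARTPT (right) in 29 calves, all in TMM-normalised CPM on log axes, with HI as circles and MOD as squares and some calves named. The calves highest in POMC (2120 and 1689) have 1.86 and 0.635 CPM of NPY, and the 3 calves highest in NPY have 8.16 to 17.7 CPM of CARTPT.

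The genes most like each member across the 29 calves, among those with a symbol, were ranked by r on log2(CPM + 1) as a description. For NPY they included CRABP1 (r = 0.582), a binder of retinoic acid, the opioid precursor PENK (0.551), CARTPT (0.548) and RGS14 (0.532), a regulator of G-protein signalling. Of the 13784 other genes past the filter, 2 had an r over 0.8 with NPY, and POMC stood 4566th in this order. Among the 10 neuropeptide genes, r with NPY was positive for 7, with a median of 0.332 and a range from -0.232 (PDYN) to 0.551 (PENK). For AGRP, whose values are of 1 or 2 reads, they were the neurotrophin receptor NGFR (0.603), CRABP1 (0.52), RGS14 (0.502), GABRE (0.399) and TAC1 (0.39).

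POMC behaved otherwise than NPY in the 29 calves, as many genes followed its pattern. An r over 0.8 with POMC was found for 1698 of the 13784 other genes (12.3%), but for only 61 (0.443%) without the 4 calves that stand apart. The count thus rested mostly on those calves. The share for a typical gene in these libraries is not given, so that the count is not read as particular to POMC. Its nearest named genes were ISOC2 (r = 0.911), FAM173A (0.875), CLDN5 (0.875), the tight junction protein of brain endothelium, C1QTNF5 (0.771) and PPP1R14A (0.752), an inhibitor of smooth muscle myosin phosphatase. Among the 13784 genes these stood 353rd, 786th, 799th, 1997th and 2171st, so that many other genes were nearer to POMC. Without the 4 calves the nearest 5 with a symbol were FAM173A (0.617), MSX1 (0.607), CLDN5 (0.605), IL20RA (0.587) and PPP1R14A (0.563). They stood 962nd, 1047th, 1059th, 1193rd and 1386th. NPY stood 6194th and CARTPT 6296th in the order for POMC. With the 10 neuropeptide genes the median r was 0.0969 in the 29 calves and -0.104 in the 25.

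The 4 calves highest in POMC were also the 4 highest in CLDN5. CLDN5 was 254 CPM in HI calf 2120, 260 CPM in MOD calf 1689, 182 CPM in MOD calf 2551 and 121 CPM in MOD calf 2537. The list of endothelial markers, CLDN5 and VCAM1, both past the filter, had a sum of 42.3 to 269 CPM over HI calves and of 41.4 to 265 CPM over MOD calves, and r of POMC with VCAM1 was 0.199. GAD2 was 3.16, 2.14, 9.62 and 11.1 CPM in the same calves, against a median in HI of 38.4 CPM and in MOD of 27.5 CPM, and its r with POMC was -0.683 in the 29 calves and -0.385 in the 25. CHGA, a protein of secretory granules in neurons and endocrine cells, went the other way in calves 2120, 1689 and 2551 (682, 946 and 723 CPM). It was 245 CPM in calf 2537, against a median of 298 CPM in HI and of 315 CPM in MOD. Its r with POMC was 0.706 in the 29 calves and 0.164 in the 25. The list of markers of neurons in general holds 6 genes (CHGA, NEFH, HPCA, SV2B, RAB3C and UNC13C). Their sum was 993 to 2003 CPM over HI calves and 209 to 2328 CPM over MOD calves. Apart from CHGA, these genes are not given singly for the calves highest in POMC. The part of these markers in the POMC values was not tested.

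Pituitary markers were examined beside POMC because the pituitary makes it too. PRL (prolactin) and CGA (the alpha subunit of the glycoprotein hormones), both past the filter, had a sum of 2.37 to 51.0 CPM over HI calves and of 0.191 to 34.2 CPM over MOD calves. POMC was higher in calves with more CGA, with an r of 0.536 (permutation p = 0.00174, adjusted p = 0.00426) and a rho of 0.489 (p = 0.00776, adjusted p = 0.0155). On leaving out the 2 calves most distant from the POMC median, r was 0.52 (permutation p = 0.00404, adjusted p = 0.0162), whereas without the 4 calves that stand apart it was 0.295 (p = 0.152, adjusted p = 0.303). Within MOD r was 0.644 and within HI 0.432 (permutation p = 0.00963 and 0.109). Within prefixes 6 to 9 it was -0.759, 0.756, 0.73 and 0.489 (exact permutation p = 0.0792, 0.0778, 0.0278 and 0.331), with the opposite sign within prefix 6. With PRL, r was 0.285 (permutation p = 0.133, adjusted p = 0.178) and rho 0.359 (p = 0.057, adjusted p = 0.0761). The 4 calves highest in POMC had 10.1 to 28.6 CPM of PRL and 2.35 to 5.53 CPM of CGA, and calf 2551 was the highest of all in CGA. Both pituitary genes differed between prefixes, with median PRL of 6.29 to 7.02 CPM under prefixes 6, 7 and 8 and of 26.2 and 34.5 CPM under 9 and 10, whereas the median of POMC was 16.7 to 18.2 CPM under prefixes 6 to 9 and 23.9 CPM under 10. MOD calves 1057 and 2532 had no read of PRL, with POMC at 16.9 and 15.5 CPM. The part of pituitary tissue in the POMC values was not tested.

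**Figure D5:**
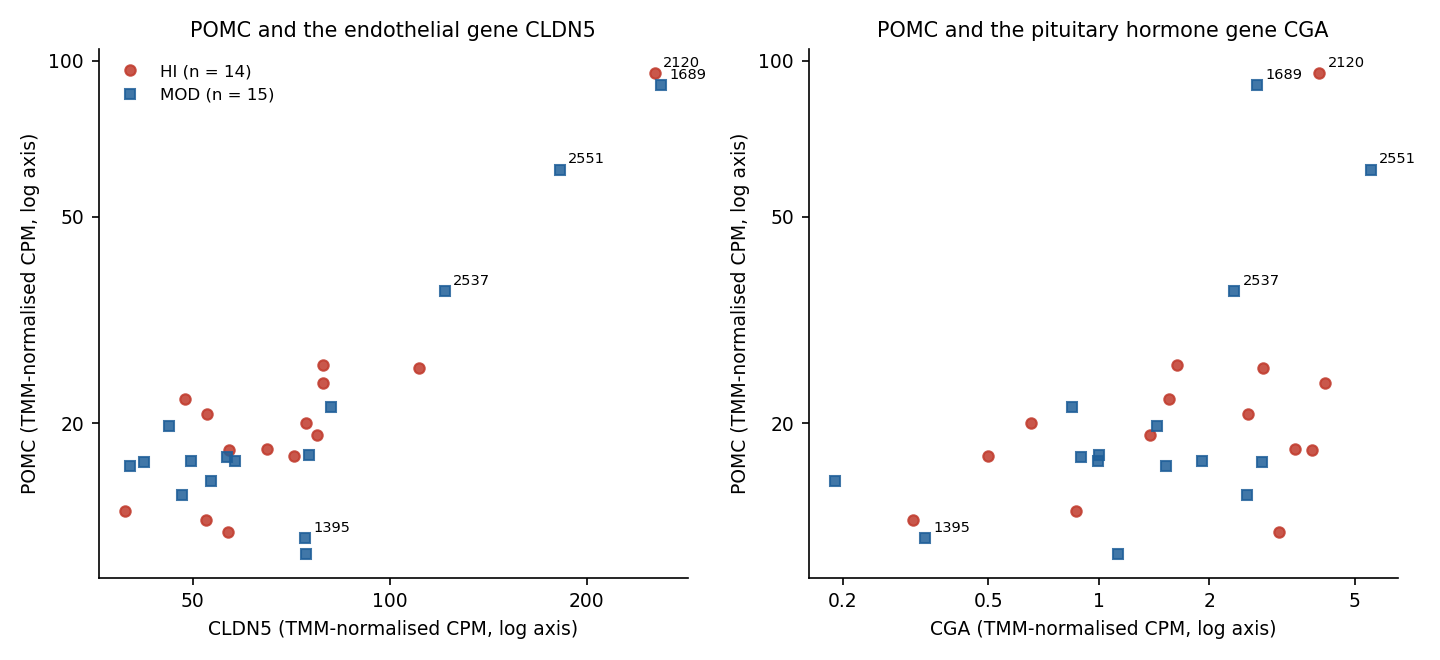
POMC against the endothelial gene CLDN5 (left) and against the pituitary hormone gene CGA (right) in 29 calves, in TMM-normalised CPM on log axes, with HI as circles and MOD as squares. The 4 calves highest in POMC are also the 4 highest in CLDN5 (121 to 260 CPM), while 3 of them (2.35 to 4.00 CPM) overlap with other calves in CGA.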

How the data were processed

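Before deposit, the authors removed adapters (Cutadapt), mapped reads to UMD3.1 and counted them per gene (STAR), and normalised by TMM (edgeR). The deposited values are this normalised signal, in CPM. The submitters' processing notes give Cutadapt 2.6, STAR 2.6.1 and edgeR 3.5. Dividing each column by the value of 1 read gave whole reads for 100% of values (within 0.01 reads). Totals were 11820640 to 17206435 reads per calf, which sets the precision. Diets came from the sample labels and symbols from the study's supplementary lists (114 identifiers). Coordinates and sequences are not given.

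Genes over 1 CPM in 14 or more calves (13785) were tested with limma 3.58.1 with a trend on log2(CPM + 1) in R 4.3.3, with Benjamini-Hochberg adjustment. AGRP, below this filter, came from the fit over the 19525 genes with a read. Correlations and ratios were tested with 100000 two-sided permutations, or all permutations for 6 calves, with adjusted p-values within the stated family (SciPy 1.17.1). The count tests on recovered reads were alternatives only: edgeR's exact and quasi-likelihood tests called 0 genes and DESeq2 called 2. Alternatives were edgeR 4.0.16, DESeq2 1.42.0, limma-voom with quality weights, RLE normalisation, a pseudocount of 0.1, other filters, the prefix as a factor, and calves left out. The limma fit and the permutation tests were tested on simulated data. The genes, lists and rules (the 3 genes, CARTPT and other peptides, PRL and CGA, cell type markers, and the 5 named genes nearest to each member by r) were chosen with earlier results of these data known, and 1 of the nearest genes is not reported here. Calves are separate animals, 1 library each. ARC libraries were not analysed here.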

Additional observations from a re-analysis of the deposited data

How the results depend on the processing

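No alternative brought AGRP, NPY or POMC past the threshold between diets. Of the settings tried, 11 gave 0 genes called and DESeq2 gave 2, and 0 were called with any 1 calf left out. The log2 difference of NPY was -0.75 in both edgeR tests and in DESeq2 (p = 0.203, 0.226 and 0.196), turned to 0.35 with limma-voom quality weights, and ranged from -0.31 to -0.04 with a calf left out. That of POMC, close to 0, turned to -0.0599 and -0.0608 in the exact and quasi-likelihood tests of edgeR, -0.43 in DESeq2 (p = 0.0985), -0.00027 with RLE and -0.0078 with the prefix as a factor. It was lowest on leaving out HI calf 2120 (-0.16) and highest on leaving out MOD calf 1689 (0.15), with 16 of 29 of these below 0. The log2 ratio of the diet means in CPM, HI over MOD, was -0.75 for NPY and -0.0589 for POMC, close to the edgeR values. Limma instead compares means of log2(CPM + 1). The causes of the differences between settings were not tested. With a calf left out, the difference in the POMC to AGRP ratio ranged from -0.14 to 0.16, in NPY to AGRP from -0.29 to -0.02 and in NPY to POMC from -0.43 (without MOD calf 1689) to -0.04 (without MOD calf 2532). With a calf left out, r of AGRP with NPY ranged from 0.0369 to 0.367, AGRP with POMC from -0.0942 to 0.1999, NPY with POMC from -0.0324 to 0.261, POMC with CARTPT from -0.0233 to 0.204, NPY with CARTPT from 0.459 to 0.651 and POMC with CGA from 0.456 to 0.59. Correlations changed sign as follows. AGRP with NPY was -0.417 within HI, -0.244 in prefix 7 and -0.246 in prefix 8. AGRP with POMC was -0.0646 without the 2 most distant calves, -0.0019 within HI, -0.0189 without the 4 calves that stand apart, and -0.587, -0.137 and -0.226 in prefixes 6, 7 and 9. NPY with POMC was -0.0015 without the 2 most distant calves, and -0.273, -0.207 and -0.0535 in prefixes 6, 8 and 9. POMC with CARTPT was -0.0399 as rho, -0.266 within HI, -0.206 without the 4 calves, and -0.613 and -0.561 in prefixes 6 and 9. In prefix 6, POMC with PRL was -0.398 and with CGA -0.759. Of the settings other than single calves left out, NPY with CARTPT lost significance in 7 and POMC with CGA in 6, prefix 6 included. Both counts include prefixes 6 to 9, whose 6 calves each leave little power. In prefix 7 an r of 0.814 for NPY with CARTPT had an adjusted p of 0.156 (exact permutation). Depth limits AGRP most, as no calf had over 2 reads. No paired analysis was possible because the labels give no pairing: each calf number occurs in 1 diet, and the blocks (age, weight, sire and farm) within which diets were allotted are not given per calf in the sources used here.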
